A study of Mus musculus with 12 samples.

Results

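The genes described here are 6 interferon-induced GTPases of mouse liver, namely the guanylate-binding proteins Gbp2 and Gbp3 and the immunity-related GTPases Irgm1, Igtp, Iigp1 and Ifi47. They were chosen by name, out of 28783 distinct names on the array. A probe belonged to a gene when its array name, or the current symbol of its RefSeq accession, was that gene, and by this rule 8 of the 41174 probes on the array belonged to the 6 genes. The array calls the Gbp3 probe Gbp4 and the Irgm1 probes Irgm. The Gbp3 probe and the tested Irgm1 probes were renamed through their accessions, and the untested Irgm1 probe was assigned by its array name. Of the 8 probes, 7 were among the 26593 tested, each of which was well above background on 4 or more of the 12 arrays, with at least 1 tested probe for each gene.

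The series compared livers of male C57BL/6 mice, 3 months old, in which the glucocorticoid receptor (GR) had been knocked out in the liver. All 3 groups carried the knockout, the controls included, and there was no wild-type group. The first group received PBS, the second an adeno-associated virus with green fluorescent protein (AAV-GFP), and the third an adeno-associated virus with human GR beta (AAV-hGRB), a splice form of the receptor that does not bind glucocorticoids. Each group had 4 samples, each on a one-colour Agilent array of its own. AAV-hGRB against AAV-GFP addresses the question in the study's title, the transcriptional activity of human GR beta that does not need GR alpha, and AAV-GFP against PBS gives the background of a vector with another cargo. For the Cre line, the vectors' promoter and dose and the time after injection the sources used here give nothing. The labels do not state that each sample came from its own animal, so each p-value measures only how far these samples spread, which may be technical.

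Interferons bind receptors that signal through Janus kinases to STAT transcription factors. Interferon gamma acts mainly at GAS elements and the type I interferons, through a complex that holds STAT2 and IRF9, at ISRE elements, and both induce the GBP and IRG families. GBPs and IRG proteins are GTPases that assemble on the membranes of vacuoles holding intracellular parasites or bacteria and help to disrupt them. Among the IRG proteins, Irgm1 and Igtp (also called Irgm3) are regulators that sit on the cell's own membranes and hold the effectors, such as Iigp1 (Irga6) and Ifi47 (Irgd), inactive there.

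Promoters of 5 of the 6 genes matched the RefSeq table, on the build GRCm38.p6, and Iigp1 did not. The 250 bases before the annotated start were searched on both strands for an ISRE core (GAAA, any 2 bases, GAAA) and for a GAS element (TTCNNNGAA). They are shown here, 5′ to 3′ on the gene's strand, because these elements are where interferon signalling reaches a gene. Capitals mark every match, which is a match of letters and not a measured binding site. The windows are chr3:142620413-142620662 on the plus strand for Gbp2, chr3:142559794-142560043 on the plus strand for the first of 2 starts of Gbp3, chr11:48871421-48871670 on the minus strand for Irgm1, chr11:58199306-58199555 on the plus strand for Igtp, and chr11:49076337-49076586 on the plus strand for Ifi47.
Gbp2: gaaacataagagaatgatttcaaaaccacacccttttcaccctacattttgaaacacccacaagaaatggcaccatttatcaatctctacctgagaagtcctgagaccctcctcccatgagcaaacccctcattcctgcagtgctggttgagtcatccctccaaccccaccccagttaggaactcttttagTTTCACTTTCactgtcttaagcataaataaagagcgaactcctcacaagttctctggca
Gbp3: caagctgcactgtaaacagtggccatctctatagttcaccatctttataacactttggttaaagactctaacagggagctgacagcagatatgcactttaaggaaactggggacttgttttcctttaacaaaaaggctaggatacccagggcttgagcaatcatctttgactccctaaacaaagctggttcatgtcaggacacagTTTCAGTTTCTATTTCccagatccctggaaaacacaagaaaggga
Irgm1: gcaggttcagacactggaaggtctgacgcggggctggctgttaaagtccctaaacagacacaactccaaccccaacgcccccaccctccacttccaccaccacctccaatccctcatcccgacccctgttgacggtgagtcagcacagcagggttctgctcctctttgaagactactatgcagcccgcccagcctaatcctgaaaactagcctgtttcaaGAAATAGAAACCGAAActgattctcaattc
Igtp: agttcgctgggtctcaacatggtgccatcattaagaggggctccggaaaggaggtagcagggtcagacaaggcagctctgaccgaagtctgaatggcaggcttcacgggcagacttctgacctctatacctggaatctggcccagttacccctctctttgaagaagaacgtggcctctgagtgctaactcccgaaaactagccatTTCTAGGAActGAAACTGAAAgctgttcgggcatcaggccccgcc
Ifi47: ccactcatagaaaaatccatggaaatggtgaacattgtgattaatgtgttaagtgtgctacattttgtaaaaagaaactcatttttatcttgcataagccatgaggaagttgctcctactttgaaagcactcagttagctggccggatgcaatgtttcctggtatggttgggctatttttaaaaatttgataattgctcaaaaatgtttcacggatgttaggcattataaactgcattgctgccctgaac

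Gbp2 held 1 ISRE core, TTTCACTTTC on the printed strand, 59 to 50 bases before the start. Gbp3 held 2 that overlap, TTTCAGTTTC and TTTCTATTTC, between 45 and 30 bases before the start. Irgm1 also held 2 overlapping cores, GAAATAGAAA and GAAACCGAAA, between 30 and 15 bases before the start. Igtp had both elements side by side, with the GAS element TTCTAGGAA at 45 to 37 bases and the ISRE core GAAACTGAAA at 34 to 25 bases before the start. The Ifi47 window and the second Gbp3 window, chr3:142560106-142560355 on the plus strand, held neither run of letters. By window, 4 of 6 (66.7%) held an ISRE core and 1 of 6 (16.7%) a GAS element. Over all 32851 promoter windows of that length the shares were 2.98% and 7.02%. Of the other GTPases listed below, 7 of 7 windows in the table held an ISRE core and 6 of 7 (85.7%) a GAS element. Of 16 windows of type I interferon targets 7 (43.8%) held an ISRE core and 3 (18.8%) a GAS element. Of 11 windows of interferon gamma targets 1 (9.09%) held an ISRE core and 1 a GAS element. Of 9 windows of hepatocyte genes 0 held an ISRE core and 1 (11.1%) a GAS element.

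Each level is a log2 intensity from which the 75th percentile of its array was subtracted, so that 0 stands for that percentile and a difference of 1 for a factor of 2. They compare arrays for a given probe, not one gene with another. Between 54.9% and 66.3% of probes were well above background on each array, and the 75th percentile itself lay between 8.45 and 9.22 on the log2 scale on 11 arrays and at 7.71 on AAV-GFP replicate 3, the dimmest array. The arrays came from 6 slides, of which slide 5 and slide 6 held an array of every group. Slide 3 held AAV-hGRB replicates 2 and 4 and no control array. AAV-GFP replicate 4 was alone on slide 4 and was scanned on day 2, and all other arrays on day 1. The scan day was not used as a block. The targeted gene Nr3c1 stood at 0.37 ± 0.15 in PBS, 0.34 ± 0.20 in AAV-GFP and 0.40 ± 0.16 in AAV-hGRB (SD, n = 4). Nothing places its 4 probes in the deleted exons, so they check neither the knockout nor the transgene. As this is whole liver, more cells of a type and more RNA per cell cannot be told apart.

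In the livers given AAV-hGRB all 6 genes had a higher mean level than in those given AAV-GFP, as did 43.5% of all probes tested. Gbp3 stood 4.13-fold higher, Igtp 2.33-fold, Irgm1 2.23-fold and Gbp2 2.0-fold, while Ifi47 stood 1.54-fold and Iigp1 1.15-fold higher. The median of the 6 log2 differences was 1.08, beside -0.05 over all probes tested. No gene passed the adjusted threshold: 0 of 6 genes and 0 of 26593 probes (0%) had a limma adjusted p under 0.05. At an unadjusted limma p under 0.05, 4 of the 6 genes were higher, beside 490 probes, or 1.84%, of all tested. The differences are therefore given as levels with their spread.

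**Figure D1:**
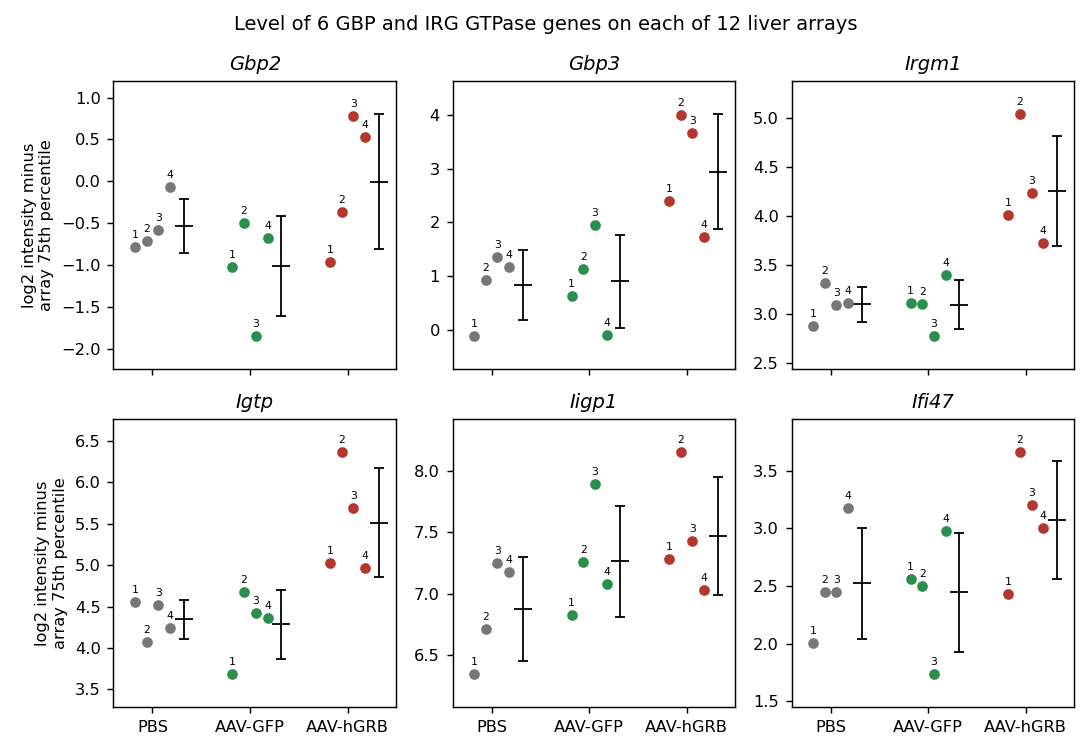
Level of each of the 6 genes (log2 intensity relative to the 75th percentile of the array, y axis, a separate scale for each gene) on the 4 PBS, 4 AAV-GFP and 4 AAV-hGRB arrays. Points are arrays with their replicate number, and the bar with caps is the group mean ± SD; for Irgm1 and Igtp every AAV-hGRB point lies above every control point, whereas for Iigp1 the groups overlap.

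Gbp2, a GBP that gathers on the vacuole of Toxoplasma, was read by 1 probe at chr3:142530694-142530753 on the plus strand of mm7, the build of the array design. Its level was -0.96, -0.37, 0.78 and 0.53 on AAV-hGRB replicates 1 to 4, -1.02, -0.50, -1.84 and -0.67 on AAV-GFP and -0.78, -0.71, -0.58 and -0.07 on PBS. AAV-hGRB replicates 3 and 4 were above every control array, replicate 1 was below every PBS array, and the groups overlapped. The mean was -0.01 ± 0.80 in AAV-hGRB, -0.54 ± 0.32 in PBS and -1.01 ± 0.60 in AAV-GFP (SD, n = 4). The difference from AAV-GFP was 1.00 (SE 0.40, 95% confidence interval 0.14 to 1.87, limma unadjusted p = 0.0262, adjusted p = 0.998). Without AAV-GFP replicate 3, the dimmest array, that difference was 0.72. The difference from PBS was 0.53 (SE 0.40, interval -0.33 to 1.39), which did not exceed the spread. Neighbouring groups in this order, AAV-hGRB and PBS or PBS and AAV-GFP, did not differ beyond their spread.

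Gbp3, another GBP of the same cluster on chromosome 3, had the widest difference of the 6. Its probe lies at chr3:142466047-142466106 on the plus strand of mm7. The level was 2.39, 4.00, 3.67 and 1.73 on AAV-hGRB replicates 1 to 4, 0.62, 1.14, 1.95 and -0.10 on AAV-GFP and -0.11, 0.93, 1.35 and 1.17 on PBS. All 4 AAV-hGRB arrays were above all PBS arrays, and AAV-hGRB replicate 4 was below AAV-GFP replicate 3, so that these 2 groups overlapped by that pair alone. Against AAV-GFP the difference was 2.05 (SE 0.55, interval 0.84 to 3.25, limma unadjusted p = 0.00298, adjusted p = 0.973). Against PBS it was 2.11 (4.32-fold, SE 0.55, interval 0.91 to 3.31, limma adjusted p = 0.573). AAV-GFP (0.90 ± 0.86) and PBS (0.84 ± 0.65) were at nearly the same mean (SD, n = 4).

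Irgm1, the regulator needed for resistance to several intracellular pathogens, was read by 3 probes on the minus strand of chromosome 11. On the brightest, at chr11:48822320-48822379 (mm7), the level was 4.01, 5.04, 4.24 and 3.73 on AAV-hGRB replicates 1 to 4, 3.11, 3.10, 2.78 and 3.40 on AAV-GFP and 2.88, 3.32, 3.09 and 3.11 on PBS. The lowest AAV-hGRB array was above the highest of the 8 control arrays. The mean was 4.25 ± 0.56 in AAV-hGRB and 3.10 in both AAV-GFP (SD 0.26) and PBS (SD 0.18). The difference was 1.16 from AAV-GFP (SE 0.27, interval 0.57 to 1.74, limma unadjusted p = 0.000962, adjusted p = 0.749) and 1.15 from PBS (SE 0.27, limma adjusted p = 0.456).

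A second Irgm1 probe, at chr11:48822670-48822729, gave the same separation. Its level was 2.70, 3.79, 3.20 and 2.70 on AAV-hGRB, 2.14, 2.01, 0.95 and 2.15 on AAV-GFP and 1.90, 2.06, 1.71 and 1.97 on PBS, again with no overlap between AAV-hGRB and either control. Its difference from AAV-GFP was 1.29 (2.44-fold, SE 0.31, limma adjusted p = 0.773). The third probe, at chr11:48819462-48819521, was well above background on 1 of 12 arrays and was not tested.

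Igtp, the other regulator, has its probe at chr11:58288970-58289029 on the plus strand of mm7. The level was 5.03, 6.36, 5.69 and 4.96 on AAV-hGRB replicates 1 to 4, 3.69, 4.67, 4.42 and 4.36 on AAV-GFP and 4.55, 4.07, 4.52 and 4.24 on PBS. As for Irgm1, all AAV-hGRB arrays were above all 8 control arrays. The mean was 5.51 ± 0.65 in AAV-hGRB, 4.35 ± 0.23 in PBS and 4.29 ± 0.42 in AAV-GFP (SD, n = 4). The difference was 1.22 from AAV-GFP (SE 0.32, interval 0.53 to 1.92, limma unadjusted p = 0.00235, adjusted p = 0.931) and 1.16 from PBS (2.24-fold, SE 0.32, limma adjusted p = 0.617). Irgm1 and Igtp were the 2 of 6 genes whose AAV-hGRB and AAV-GFP groups did not overlap, beside 278 of 26593 probes (1.05%) that were higher in AAV-hGRB without overlap.

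Iigp1, an effector that also has a promoter active in liver without interferon, was read by 1 probe at chr18:60781938-60781997 on the plus strand of mm7. Its level was 7.28, 8.15, 7.43 and 7.03 on AAV-hGRB replicates 1 to 4, 6.83, 7.26, 7.89 and 7.08 on AAV-GFP and 6.35, 6.71, 7.25 and 7.18 on PBS. AAV-hGRB replicate 2 was the highest array and AAV-GFP replicate 3 the next, and the 3 groups overlapped. The mean was 6.87 ± 0.42 in PBS, 7.27 ± 0.45 in AAV-GFP and 7.47 ± 0.48 in AAV-hGRB (SD, n = 4), and no neighbouring means in this order differed beyond the spread. The difference from AAV-GFP was 0.21 (SE 0.31, interval -0.47 to 0.88, limma unadjusted p = 0.519, adjusted p = 0.998), an interval that holds 0 and leaves room for a change of up to 0.88. Without AAV-hGRB replicate 2 the difference was -0.02, and with the slide as a fixed block it was -0.18, so its direction was not settled. The difference from PBS was 0.60 (1.51-fold, SE 0.31, limma adjusted p = 0.876).

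Ifi47, the other effector, has its probe at chr11:49053428-49053487 on the plus strand of mm7. The level was 2.43, 3.66, 3.20 and 3.00 on AAV-hGRB replicates 1 to 4, 2.56, 2.50, 1.74 and 2.98 on AAV-GFP and 2.01, 2.45, 2.45 and 3.18 on PBS. AAV-hGRB replicate 1 lay among the controls, and the groups overlapped. The mean was 3.07 ± 0.51 in AAV-hGRB, 2.52 ± 0.49 in PBS and 2.45 ± 0.52 in AAV-GFP (SD, n = 4). The difference was 0.63 from AAV-GFP (SE 0.34, interval -0.11 to 1.36, limma unadjusted p = 0.0892, adjusted p = 0.998) and 0.55 from PBS (SE 0.34, limma adjusted p = 0.916). Without AAV-GFP replicate 3, the dimmest array, the first was 0.39.

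**Figure D2:**
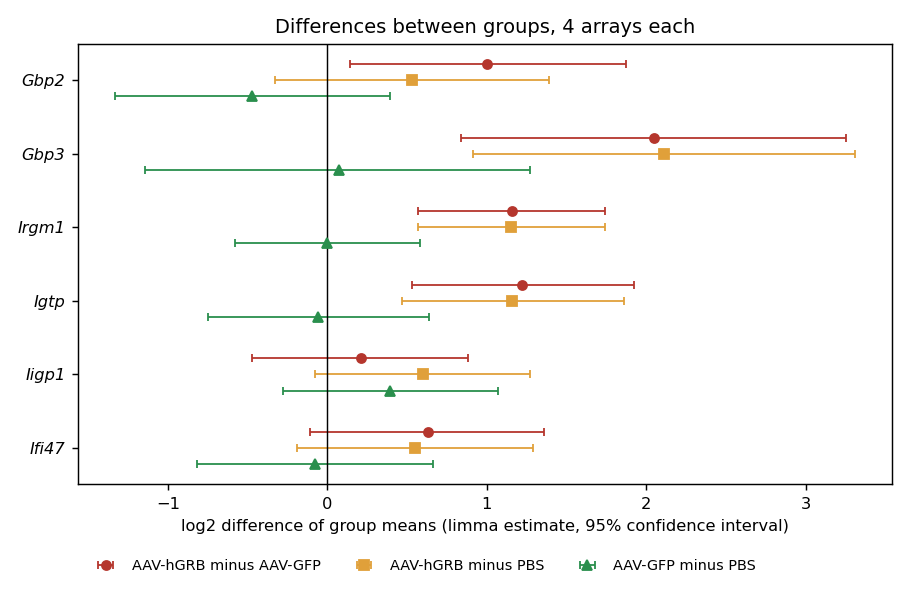
Difference between group means for each gene (log2, x axis; limma estimate with its 95% confidence interval, from 4 arrays per group), with AAV-hGRB minus AAV-GFP as circles, AAV-hGRB minus PBS as squares and AAV-GFP minus PBS as triangles. The AAV-hGRB intervals of Gbp3, Irgm1 and Igtp lie above 0 against both controls, and all 6 AAV-GFP minus PBS intervals hold 0.

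The virus with GFP did not separate from PBS for any of the 6 genes. The differences, AAV-GFP minus PBS, were 0.07 for Gbp3, 0.00 for Irgm1, -0.06 for Igtp, -0.08 for Ifi47, 0.39 for Iigp1 and -0.47 for Gbp2, with a median of -0.03 beside 0 over all probes. Of the 6, 2 were positive, as were 50.6% of all probes. The groups overlapped for all 6, as they did for all but 0.94% of probes. Of the genes, 0 of 6 passed the limma adjusted threshold (0% of all probes did) and 0 of 6 had an unadjusted p under 0.05 (1.68% of all probes did). The widest intervals were those of Gbp3, -1.14 to 1.27, and Gbp2, -1.33 to 0.39, and the narrowest that of Irgm1, -0.58 to 0.58. For Igtp the interval was -0.75 to 0.64, for Iigp1 -0.28 to 1.07 and for Ifi47 -0.82 to 0.66.

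Against PBS the livers given AAV-hGRB were higher for all 6 genes (42.8% of all probes were), with a median difference of 0.88 beside -0.06 over all probes. Of the 6, 0 passed the limma adjusted threshold (0% of all probes did) and 3 were higher at an unadjusted p under 0.05, beside 2.86% of all probes. These were Gbp3, Irgm1 and Igtp, whose groups also did not overlap, beside 2.14% of probes. This comparison and that with AAV-GFP share the AAV-hGRB arrays, so they are not independent of each other. Against the mean of both controls the differences were 2.08 for Gbp3, 1.19 for Igtp, 1.16 for Irgm1, 0.77 for Gbp2, 0.59 for Ifi47 and 0.40 for Iigp1, all positive, as were 41.2% of probes. The limma adjusted p was 0.246 for Irgm1 and 0.349 for Gbp3 and Igtp, and between 0.887 and 0.942 for the rest. In that comparison 0 of 6 genes and 1 of 26593 probes (0.00376%) passed the adjusted threshold. 4 of the 6 genes were higher at an unadjusted p under 0.05, beside 2.97% of probes, and Irgm1 and Igtp were without overlap, beside 0.523%. With array weights, which gave AAV-GFP replicate 3 the lowest weight, Gbp3 passed against the mean of both controls (2.51, limma adjusted p = 0.0339), beside 88 of all probes (0.331%), and 0 of 6 genes passed against PBS, beside 67 probes (0.252%).

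The 4 AAV-hGRB samples were not alike in these genes. The mean level of the 6 genes was 3.36, 4.47, 4.17 and 3.50 on AAV-hGRB replicates 1 to 4, 2.63, 3.03, 2.82 and 2.84 on AAV-GFP and 2.48, 2.80, 3.01 and 3.14 on PBS. The 4 AAV-hGRB values were the highest of the 12, and the median SD of a gene between replicates was 0.37 in PBS, 0.48 in AAV-GFP and 0.61 in AAV-hGRB; these spreads were not tested against each other. AAV-hGRB replicate 2 had the highest level of all 12 arrays for 5 of the 6 genes, and replicate 3 for the sixth, Gbp2. Replicate 2 was above all 4 AAV-GFP arrays for 6 genes, replicate 3 for 5, replicate 4 for 4 and replicate 1 for 3. The shares of all probes that were so on these arrays were not counted. The counts thus cannot be read as particular to these genes. Without replicate 2 the AAV-hGRB minus AAV-GFP difference was 1.70 for Gbp3, 0.94 for Igtp and 0.90 for Irgm1.

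**Figure D3:**
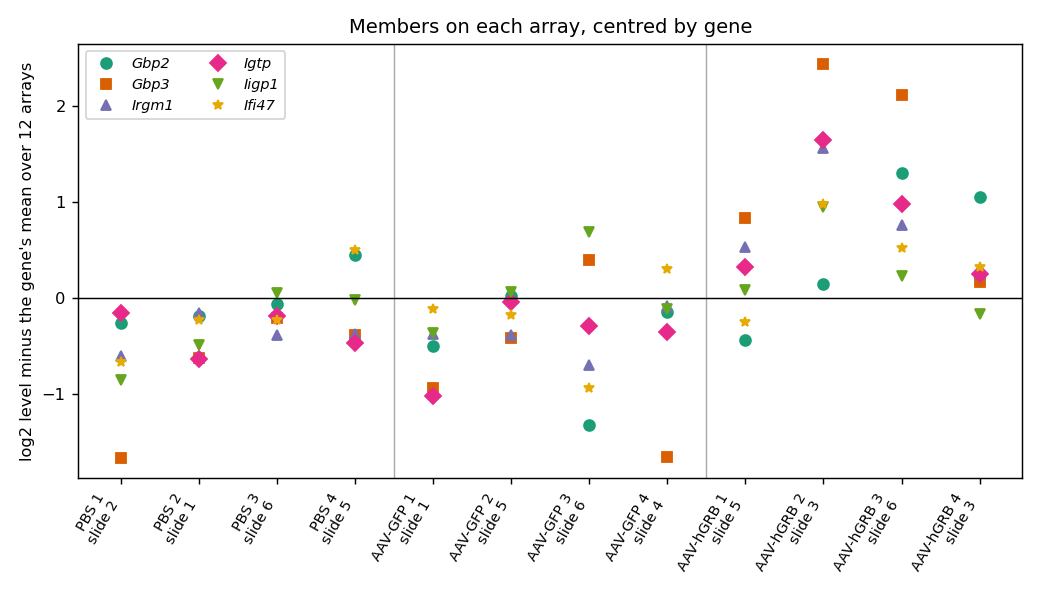
Level of each of the 6 genes on each array (log2, minus the gene's own mean over the 12 arrays, y axis), with the array's group, replicate and slide on the x axis and a separate symbol per gene. For Gbp3, Irgm1, Igtp and Ifi47 the symbols of AAV-hGRB replicates 2 and 3 lie furthest above 0, and those of replicates 1 and 4 lie nearer to the controls. For Gbp2 AAV-hGRB replicates 3 and 4 lie highest, and for Iigp1 AAV-hGRB replicate 2 and AAV-GFP replicate 3.

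Slide 5 and slide 6 each allow a comparison within a slide, of 1 array per group and with no test. On slide 5 AAV-hGRB replicate 1 minus AAV-GFP replicate 2 was 1.25 for Gbp3, 0.90 for Irgm1, 0.36 for Igtp, 0.01 for Iigp1, -0.07 for Ifi47 and -0.46 for Gbp2, with a median of 0.19. On slide 6 AAV-hGRB replicate 3 minus AAV-GFP replicate 3 was 2.62 for Gbp2, 1.73 for Gbp3, 1.46 for Irgm1 and Ifi47, 1.26 for Igtp and -0.45 for Iigp1, with a median of 1.46. Over all probes tested the median was 0 for the pair on slide 5 and -0.33 for the pair on slide 6. The pair on slide 6 holds AAV-GFP replicate 3, the dimmest array. Gbp3, Irgm1 and Igtp were higher in AAV-hGRB on both slides, whereas Gbp2, Ifi47 and Iigp1 were higher on 1 of the slides only. Against PBS the median of the 6 was 0.44 on slide 5 and 1.16 on slide 6, beside 0.04 and -0.21 over all probes tested. AAV-GFP minus PBS gave medians of -0.26, -0.02 and -0.21 on slides 1, 5 and 6. With the slide as a fixed block the AAV-hGRB minus AAV-GFP difference was 1.59 for Gbp3, 1.19 for Irgm1, 0.99 for Gbp2, 0.90 for Igtp and 0.56 for Ifi47, and 1 of the 6 genes, in place of 4, then had an unadjusted limma p under 0.05. The share of all probes under that fit was not counted. The block also uses residual degrees of freedom, so the lower count cannot be read as particular to these genes.

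Over the 12 arrays the genes varied together to unequal degrees. The correlation between levels, given as a description over arrays that share their groups, ran from -0.04 to 0.87 over the 15 pairs, with a median of 0.57. The highest was that of the regulators Igtp and Irgm1, at 0.87, followed by Gbp3 with Igtp at 0.84, and the lowest that of Gbp2 and Iigp1. After each group's mean was subtracted the range was -0.25 to 0.86 and the median 0.40. Gbp3 and Iigp1 then had the highest value, 0.86, while their differences from AAV-GFP were the largest and the smallest of the 6. Gbp2 went with Ifi47 (0.62) and Irgm1 with Ifi47 (0.68) within groups, and Gbp2 with Igtp was at 0.02 and Gbp2 with Irgm1 at 0.03.

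The genes most like the 6 in pattern were taken from 12643 genes by their correlation with the mean of the 6 standardised levels over the 12 arrays. The 10 highest were Ifi44 (0.969), Shisa5 (0.968), Isg15 (0.964), Ifih1 (0.962), Ifit1 (0.961), Cmpk2 (0.960), Ifit3 (0.950), Oas1a (0.950), Gbp6 (0.948) and Gvin1 (0.942). Within groups their correlations were lower, between 0.822 for Gvin1 and 0.923 for Ifih1. Isg15 is a ubiquitin-like modifier, Ifit1 binds viral RNA, Ifih1 senses double-stranded RNA in the cytoplasm and Oas1a makes the activator of RNase L. Their AAV-hGRB minus AAV-GFP differences ran from 0.88 for Ifih1 to 2.82 for Ifi44, and their AAV-GFP minus PBS differences from -0.09 for Shisa5 to 0.54 for Gbp6.

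Of 18 other GTPases listed, 13 were named on the array and tested. Whether each of them answers to interferon was not checked. Against AAV-GFP, 11 of the 13 were higher in AAV-hGRB (43.5% of all probes were), with a median of 1.16 and a range from -0.76 to 1.92. By limma 0 passed the adjusted threshold and 9 were higher at an unadjusted p under 0.05, beside a median of -0.05 and 1.84% of probes over the whole array. Among the GBPs, Gbp6 was higher than in AAV-GFP by 1.67 (SE 0.55), Gbp7 by 1.44 (SE 0.35), Gbp8 by 1.16 (SE 0.45) and Gbp5, which promotes inflammasome assembly, by 0.88 (SE 0.26). The difference was 0.57 for Gbp4, 0.44 for Gbp9 (0.95 on its second probe) and -0.21 for Gbp2b. GBP genes are close in sequence, and whether their probes share signal was not tested. Among the IRG genes the third regulator, Irgm2, was higher by 1.13 (SE 0.43) and the effector Tgtp1 by 1.92 (SE 0.55, and 0.67 on its second probe), and Irgc1, well above background on 2 of 4 arrays in each group, had a difference of -0.76. The large GTPase Gvin1 was higher by 1.75, between 1.75 and 1.89 on its 3 probes. The Mx proteins, which block the replication of RNA viruses, had differences of 1.62 for Mx1, well above background on 4 AAV-hGRB, 1 AAV-GFP and 2 PBS arrays, and of 1.22 for Mx2. AAV-GFP minus PBS had a median of 0.15 over these 13 genes, with 0 at an unadjusted limma p under 0.05, beside 1.68% of all probes.

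Genes that carry the interferon gamma signal had small differences on the brightest probe, which stands for each, and some had wider ones on other probes. Of 13 listed and tested, 10 had a positive difference between AAV-hGRB and AAV-GFP (43.5% of all probes did), with a median of 0.07. By limma 0 passed the adjusted threshold (0% of all probes did) and 0 had an unadjusted p under 0.05. Over the whole array 1.84% of probes were higher at that p, so a count of 0 among 13 genes is near that share. The cytokine gene Ifng stood at -3.98 ± 0.97 in PBS, -3.56 ± 0.66 in AAV-GFP and -3.30 ± 0.33 in AAV-hGRB (SD, n = 4). Its receptor chains Ifngr1 and Ifngr2 differed from AAV-GFP by 0.04 and 0.07, and the kinases Jak1 and Jak2 by 0.07 and 0.20. The transcription factors Irf1, Irf2 and Irf8 differed by 0.07, -0.14 and 0.31. Probes that do not stand for a gene gave wider differences for some of the list, such as 0.75 for Irf8 (limma unadjusted p = 0.0109). That was not the widest of them, so the median on the brightest probes does not show that the list was unchanged. The inhibitors Socs1, Socs3, Pias1 and Ptpn2 differed by 0.39, -0.27, 0.03 and -0.15.

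The type I interferon pathway held 2 genes with a wider difference. Irf7, the factor that amplifies type I interferon transcription and is itself induced by it, stood at 0.08 ± 0.26 in PBS, 0.00 ± 0.31 in AAV-GFP and 2.49 ± 1.08 in AAV-hGRB (SD, n = 4), and its limma adjusted p against AAV-GFP was 0.31. Irf9, the DNA-binding subunit of the ISRE complex, was higher than in AAV-GFP by 0.78 (SE 0.21, limma unadjusted p = 0.00267). Both genes had no overlap with AAV-GFP, beside 1.05% of all probes that were higher without overlap. The difference from AAV-GFP was 0.60 (SE 0.41) for Stat2, 0.27 for Tyk2, 0.05 and -0.16 for the receptor chains Ifnar1 and Ifnar2 and -0.40 for Irf3 (0.74 on its second probe). The cytokine gene Ifnb1 was well above background on 2 of 4 AAV-hGRB arrays and on 0 of 4 in each control group, and was not tested. Over the 7 genes tested the median was 0.27.

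Targets of the interferons were described by 2 lists. Over all probes tested, 43.5% had a positive difference between AAV-hGRB and AAV-GFP and 1.84% were higher at an unadjusted limma p under 0.05. Of 18 genes tested from a list of type I targets, which includes Irf7, 18 had a positive difference, 17 at that threshold and 0 after adjustment, with a median of 1.84. The 5 of lowest p were Usp18 (2.23), Irf7 (2.49), Oasl1 (1.70), Rtp4 (1.77) and Ifi44 (2.82). Of 17 genes tested from a list often used for interferon gamma, 13 were higher, 3 at an unadjusted limma p under 0.05 and 0 after adjustment, with a median of 0.51. These 3 were the chemokine genes Cxcl10 (1.47) and Cxcl9 (1.24) and the peptide transporter gene Tap1 (1.19). The next 2 by p were Tap2 (0.51) and Cd274 (0.80). Many genes answer to both types of interferon, and the difference between the lists was not tested. AAV-GFP minus PBS had medians of 0.12 and 0.05 over the lists. The autophagy conjugation genes, which help to load IRG proteins and GBPs onto vacuoles, had a median of -0.08 over 13 genes, a range from -0.32 to 0.11, and 0 at an unadjusted limma p under 0.05.

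**Figure D4:**
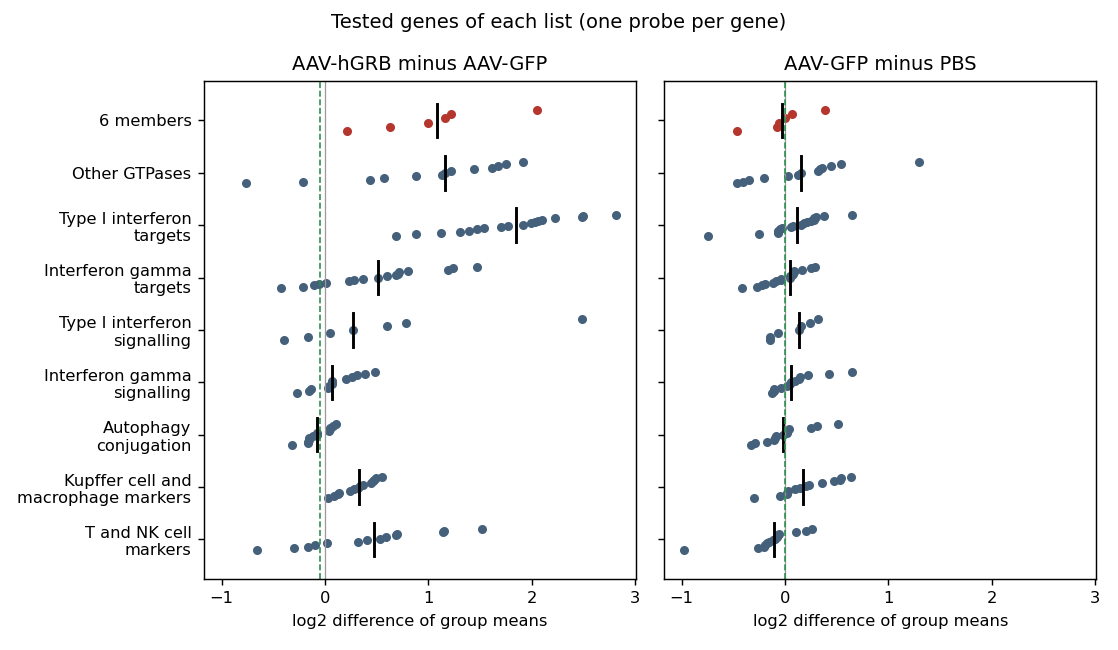
Difference between group means (log2, x axis) of each tested gene, 1 probe per gene, in the 6 members and in 8 gene lists (y axis), for AAV-hGRB minus AAV-GFP at left and AAV-GFP minus PBS at right. Black bars are list medians and the dashed line is the median of all probes tested; at left the medians of the members (1.08), other GTPases (1.16) and type I targets (1.84) lie furthest from it, and at right the medians lie between -0.11 and 0.17.

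Markers of the cells that liver holds were measured beside these genes. The hepatocyte list was at a mean level of 7.12 to 7.27 over the AAV-hGRB arrays, 6.84 to 7.49 over AAV-GFP and 7.12 to 7.50 over PBS, with all 9 genes tested. Their AAV-hGRB minus AAV-GFP differences ran from -0.75 to 0.34, with a median of -0.09. Of the 9, 1 was lower in AAV-hGRB at an unadjusted limma p under 0.05 and without overlap. The share of all probes that were lower by these rules was not counted. The Kupffer cell and macrophage markers stood above their AAV-GFP mean in AAV-hGRB for 14 of 14 genes (43.5% of all probes did), by 0.03 to 0.55 with a median of 0.33. Of them, 0 had an unadjusted limma p under 0.05. AAV-GFP minus PBS was positive for 12 of these 14 genes (50.6% of all probes), with a median of 0.17. AAV-hGRB minus PBS was positive for 14 of 14 (42.8% of all probes), with a median of 0.53. Their list mean was 1.88 to 2.86 over AAV-hGRB, 1.70 to 2.42 over AAV-GFP and 1.10 to 2.23 over PBS. For T and NK cell markers 10 of 14 genes tested were higher, with a median of 0.47. Of these, 4 had an unadjusted limma p under 0.05 (1.84% of all probes were higher at it), namely Ccl5 (1.15), Gzma (1.52), Cd3g (0.53) and Cd2 (0.69). In the same order AAV-GFP minus PBS was -0.08, -0.26, -0.07 and -0.98, and AAV-hGRB minus PBS was 1.07, 1.26, 0.46 and -0.29. For Cd2 AAV-GFP was thus below PBS (limma unadjusted p = 0.00837), and AAV-hGRB was not above PBS. Their list mean was -2.56 to -1.80 over AAV-hGRB, -2.70 to -2.45 over AAV-GFP and -3.08 to -2.23 over PBS. The other 10 did not reach that threshold on their brightest probes and are all given here. The T cell receptor chains Cd3d and Cd3e differed from AAV-GFP by 0.32 and 0.02, the kinase Lck by 0.59 and the coreceptor Cd4 by -0.30. The probes of the coreceptor chain Cd8b1 disagreed, at -0.10 on the brightest and 1.36 on the second (limma unadjusted p = 0.00356), both well above background on all 12 arrays. The cytotoxic granule genes Nkg7, Gzmb and Prf1 differed by 0.70 (1.04 on the second Nkg7 probe, limma unadjusted p = 0.0211), 1.14 and 0.41, and the NK cell receptors Klrb1c and Ncr1 by -0.16 and -0.66. The brightest Cd8a probe was well above background on 3 of 4 AAV-hGRB arrays and 0 of 8 control arrays, and Cd28 on none of the 12. Of 7 neutrophil markers tested, 2 were higher than in AAV-GFP at an unadjusted limma p under 0.05, S100a8 (0.88) and S100a9 (0.86), with a median of 0.38. For AAV-GFP minus PBS 4 were lower, with a median of -1.0, beside 1.68% of all probes that differed in either direction. AAV-hGRB minus PBS was -0.41 for S100a8 and -0.40 for S100a9. Of 6 B cell markers tested, 1 was higher than in AAV-GFP at that threshold, Cd22 (0.87), with a median of 0.05. For Cd22 AAV-GFP minus PBS was -0.54 and AAV-hGRB minus PBS 0.33. Of 8 endothelial markers 2 were, Lyve1 (0.72, and 0.99 on its second probe) and Kdr (0.53), with a median of 0.04. For Lyve1 and Kdr AAV-GFP minus PBS was -0.50 and -0.16, and AAV-hGRB minus PBS was 0.22 and 0.38. Cd22, Lyve1, Kdr and Cd3g were higher than in AAV-GFP without overlap, beside 1.05% of all probes, and 0 of the markers in these lists passed the adjusted threshold. The part of these cells in the GTPase levels was not tested.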

How the data were processed

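Total RNA of 12 mouse liver samples, prepared with a Qiagen RNeasy midi kit with DNase treatment and labelled with Cy3 from 500 ng per the labels' protocols, was read on one-colour Agilent arrays. The values in the deposited scanner files are spot intensities, not log-transformed. Local background subtraction and detrending within each array were done by Agilent Feature Extraction, version 9.5 per the submitters' processing notes and 9.5.3.1 per the file headers. The deposited series matrix gives no scale, centring or direction of its own. Its 520548 values compared match the scanner files' processed intensity exactly (maximum relative difference 0), which makes it linear and uncentred, and its column medians over those non-control spots lay between 30.3 and 72.3.

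From the intensity, log2 was taken, spots of a probe were averaged, 1639 control spots were left out and each array's 75th percentile was subtracted. Probes well above background on at least 4 of 12 arrays were tested in 1 limma fit (limma 3.58.1 and statmod 1.5.0 in R 4.3.3, with data.table release 1.17.8) that held 3 groups, leaving 9 residual degrees of freedom. All tests are two-sided, p-values were adjusted after Benjamini and Hochberg across the 26593 probes and the threshold was 0.05. The fit was checked on simulated data. RefSeq accessions named 22951 probes through the systematic name and 124 through a different accession, while 18099 keep what the array calls them. The brightest probe stands for a gene. Named genes are the 6 members with every probe, up to 5 of lowest unadjusted p in each list, all members of the GTPase and signalling lists, the 10 most like the members in pattern, and Nr3c1. The remaining T and NK cell markers, named with their values, fall outside this rule and were chosen after their values were seen. A gene that this rule names is not reported here. The members and lists were chosen with earlier results of these data known. Probe positions are those of the array design on mm7, with no exon or UTR annotation used here. Precision is limited by the number of arrays; the median SE of a log2 difference was 0.31. Alternatives were other scaling, background correction, filters, blocks for slide and replicate number, array weights, all probes of a gene, the series matrix and leaving out each array.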

Additional observations from a re-analysis of the deposited data

How the results depend on the processing

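The median difference of the 6 genes kept its direction against AAV-GFP, PBS and their mean under every alternative tried. Against AAV-GFP it lay between 0.89 and 1.15 over the other settings and between 0.89 and 1.28 with each array left out, against PBS between 0.61 and 1.02 and between 0.76 and 1.04, and against the mean of both controls between 0.78 and 1.02 and between 0.84 and 1.16. AAV-GFP minus PBS lay around 0, between -0.10 and 0.06 and between -0.16 and 0.07. No probe passed the adjusted limma threshold against AAV-GFP, or for AAV-GFP minus PBS, under any alternative.

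Array weights gave AAV-GFP replicate 3 a weight of 0.16 and the other arrays 0.58 to 3.34. With them 67 probes passed against PBS (0.252%) and 88 against the mean of both controls (0.331%), where 1 did without, and Gbp3 passed in the latter (2.51, limma adjusted p = 0.0339), the 1 setting in which a member did. Against the mean of both controls the count was 2 with normexp background correction and 0 with quantile normalization, array median scaling, no filter, a filter on all 12 arrays, the slide as a fixed block and the replicate block. With 1 array left out it lay between 0 and 4: 3 without AAV-hGRB replicate 1, 4 without AAV-hGRB replicate 4, 1 without PBS replicate 4 and 0 without any 1 of the remaining 9. With the replicate number as a block the medians of the 6 genes were 1.08 against AAV-GFP, 0.88 against PBS and 0.96 against both, and it changed no call of a member. The groups share replicate numbers, but deviations of same-numbered arrays from their group means correlated between -0.43 and 0.59, over 0.1 in 5 of 12 pairs, and 4 of 12 arrays correlated best with one of their own number, so the numbers were not taken to pair the samples.

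Directions turned in differences near 0. AAV-GFP minus PBS was 0.05 for Irgm1 with array median scaling, and with array weights it was 0.04 for Irgm1, -0.43 for Gbp3, 0.09 for Igtp and 0.27 for Ifi47. With each array left out it lay between -0.19 and 0.14 for Igtp, -0.28 and 0.40 for Gbp3, -0.10 and 0.10 for Irgm1 and -0.26 and 0.16 for Ifi47. For Iigp1 the slide as a fixed block gave -0.18 against AAV-GFP and -0.04 against both controls, and leaving out 1 array gave -0.02 to 0.41 against AAV-GFP. The cause of these changes was not tested. With the slide as a fixed block, AAV-hGRB and AAV-GFP meet on 2 slides only. As a random block its estimated correlation was 0.03.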

Other observations

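The 1 probe that passed the adjusted threshold against the mean of both controls carries the clone name BC013672 and was singled out after its values were seen. Its difference was 3.16 (SE 0.37, limma adjusted p = 0.0465).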
